A study of Mus musculus with 4 samples.

Results

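Neurons build their axons and dendrites on stable microtubules, polymers of alpha- and beta-tubulin. The 8 genes described here encode proteins of that system: the stathmins Stmn1, Stmn2 and Stmn3, the microtubule-associated proteins Dcx, Map2 and Map1b, the beta-tubulin Tubb3 and the alpha-tubulin Tuba3a. They were chosen by name, with earlier results of these data known. The counts below, set beside shares of all genes, are therefore descriptions and not tests. Every array probe whose symbol was one of these was taken, 18 of 25697 probes and 8 of 17876 genes on the array. The array design listed Map2, Map1b and Tuba3a under the older symbols Mtap2, Mtap1b and Tuba3, and each of the 18 probes was matched to its gene by RefSeq accession.

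The cells were mouse E14 embryonic stem cells, a line that self-renews on gelatin in the presence of LIF, the cytokine that holds these cells undifferentiated. All 4 groups carried a stably integrated virus expressing an shRNA, either a scrambled control sequence or 1 against AKAP95, a nuclear anchor protein of protein kinase A encoded by Akap8. Each population was measured undifferentiated, or after 4 days without LIF followed by 4 days with 1 µM all-trans retinoic acid (RA) in monolayer. Total RNA was hybridised to Illumina bead arrays, 1 array per group and 4 arrays in all. The study asks how AKAP95, a partner of MLL histone methyltransferase complexes, bears on gene expression and on differentiation. RA treatment, loss of LIF and time in culture cannot be told apart, and "RA effect" stands for all of them. The labels name 1 shRNA against AKAP95 and give 1 sample per group.

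As background, stathmins bind free tubulin dimers and favour disassembly of microtubules. Stmn1 is found in many dividing cells, whereas Stmn2 (SCG10) and Stmn3 (SCLIP) are known mostly from neurons, where Stmn2 acts in growth cones. Doublecortin, the product of Dcx, stabilises microtubules in migrating young neurons. Map2 is the classic dendritic protein, and Map1b acts in growing axons. Tubb3 is the beta-tubulin widely used as a neuron marker, whereas Tuba3a and its near-identical copy Tuba3b are alpha-tubulin genes known best from the testis. RA is a standard agent for driving embryonic stem cells towards neural fates in culture.

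The stretches upstream of the start of 5 genes, with Tuba3b from outside the 8, are shown because of likenesses in their probe signals below. By their brightest probes, Dcx, Map2 and Map1b were highest in RA-treated scramble cells and next highest in RA-treated knockdown cells. Tuba3a and Tuba3b, whose probes may share signal, were lowest in RA-treated scramble and highest in RA-treated knockdown cells. Each stretch is the 250 bases before the gene's start from RefSeq (GRCm38.p6), written 5′ to 3′ on the gene's strand. Of the 8 genes, 6 had such a stretch. They lie at chrX:143933220-143933469 (minus strand) for Dcx, chr1:66175079-66175328 (plus) for Map2, chr13:99516603-99516852 (minus) for Map1b, chr6:125286082-125286331 (minus) for Tuba3a and chr6:145615713-145615962 (plus) for Tuba3b. Capitals mark TATAAA, the TATA box letters, in the first 3 sequences and CCAAT, the CCAAT box letters, in the last 2.
Dcx: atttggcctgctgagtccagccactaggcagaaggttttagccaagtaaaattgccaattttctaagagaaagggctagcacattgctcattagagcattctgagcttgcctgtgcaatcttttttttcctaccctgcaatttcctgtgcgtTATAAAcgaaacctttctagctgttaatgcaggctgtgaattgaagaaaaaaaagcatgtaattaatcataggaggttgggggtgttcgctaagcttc
Map2: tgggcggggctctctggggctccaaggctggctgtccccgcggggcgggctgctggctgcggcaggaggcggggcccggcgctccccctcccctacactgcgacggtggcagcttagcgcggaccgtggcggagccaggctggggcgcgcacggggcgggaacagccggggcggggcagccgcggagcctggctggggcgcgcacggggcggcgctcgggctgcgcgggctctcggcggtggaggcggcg
Map1b: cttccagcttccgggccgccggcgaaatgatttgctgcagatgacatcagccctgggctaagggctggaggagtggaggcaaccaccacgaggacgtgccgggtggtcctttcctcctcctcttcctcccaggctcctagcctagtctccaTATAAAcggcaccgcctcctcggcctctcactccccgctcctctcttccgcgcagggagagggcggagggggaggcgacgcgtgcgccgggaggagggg
Tuba3a: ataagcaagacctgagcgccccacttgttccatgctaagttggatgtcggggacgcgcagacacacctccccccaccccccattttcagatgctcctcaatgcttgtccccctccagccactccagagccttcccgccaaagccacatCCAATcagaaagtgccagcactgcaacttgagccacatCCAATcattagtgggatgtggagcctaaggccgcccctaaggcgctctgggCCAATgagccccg
Tuba3b: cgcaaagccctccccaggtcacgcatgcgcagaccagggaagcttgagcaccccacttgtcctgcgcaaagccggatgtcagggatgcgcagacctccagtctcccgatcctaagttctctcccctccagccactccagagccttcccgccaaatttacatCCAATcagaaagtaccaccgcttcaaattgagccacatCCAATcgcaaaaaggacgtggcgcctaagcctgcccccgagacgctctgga
The upstream stretches of Tuba3a and Tuba3b aligned with 180 identical bases in 283 columns (63.6%). Tuba3a held CCAAT at 3 places, with first bases 102, 64 and 13 bases before the start, and Tuba3b at 2 places, 89 and 51 bases before it. Both stretches had 58.4% G and C. The Dcx stretch also held CCAAT, 196 bases before the start and left in lower case. It held TATAAA 98 bases before the start shown, which lies 193 bases before the other Dcx start in the table, and the Map1b stretch held it 99 bases before its start, whereas the Map2 stretch, with 81.2% G and C, held neither motif. The Dcx stretch had 41.6% and the Map1b stretch 66.4% G and C. Over 32851 upstream stretches of the same length, searched on both strands, CCAAT was present in 33.8% and TATAAA in 12.4%. CANNTG (N for any base) and AGGTCA were searched too, and were present in 66.2% and 14.0%. Of the stretches shown, those of Tuba3a, Tuba3b and Map1b held CANNTG and that of Tuba3b held AGGTCA, in lower case. The Tubb3 stretch, not shown, held CCAAT 77 bases before its start. These matches describe the letters and are not evidence of bound factors.

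The number of probes detected per array, at a detection p under 0.01, ranged from 11344 to 12156 of 25697 (44.1% to 47.3%). Median signals ranged from 75.1 to 82.8, and the dimmest detected probes had signals of 84.8 to 91.3, so values near these lie at the edge of what the arrays measured. The Akap8 signal was 272 in scramble and 139 in knockdown cells before RA, and 297 and 199.7 after RA. The knockdown difference in Akap8 was thus -1.19 on the log2 scale before RA and -0.77 after it. Of the 8 pluripotency genes listed, all were at least 2-fold lower after RA in both populations, with medians of -4.86 and -4.0. Over all genes compared, 11.8% were 2-fold lower in scramble and 9.82% in knockdown cells. Of 14 neuron markers 9 were detected on some array, while Nefl, Syt1, Snap25, Ncam1 and Gng3 were detected on none.

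Of the 18 probes, 13 were detected on at least 1 array, 8 on all 4 and 5 on none, and all 8 genes had at least 1 detected probe. Differences below are of log2 values after background correction, an offset of 16 and quantile normalization, and "fold" is the same difference on the linear scale. Where a probe was detected on only 1 array of a pair, the dim side was set to the lowest detected value of its array and the difference is a bound, given as "at least". Each pairwise difference is of 1 array against 1 array, so there is no spread between replicates and no test, and a difference of 1 on the log2 scale (2-fold) was the size rule. In bulk RNA, fewer cells of a type and less RNA per cell cannot be told apart.

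**Figure D1:**
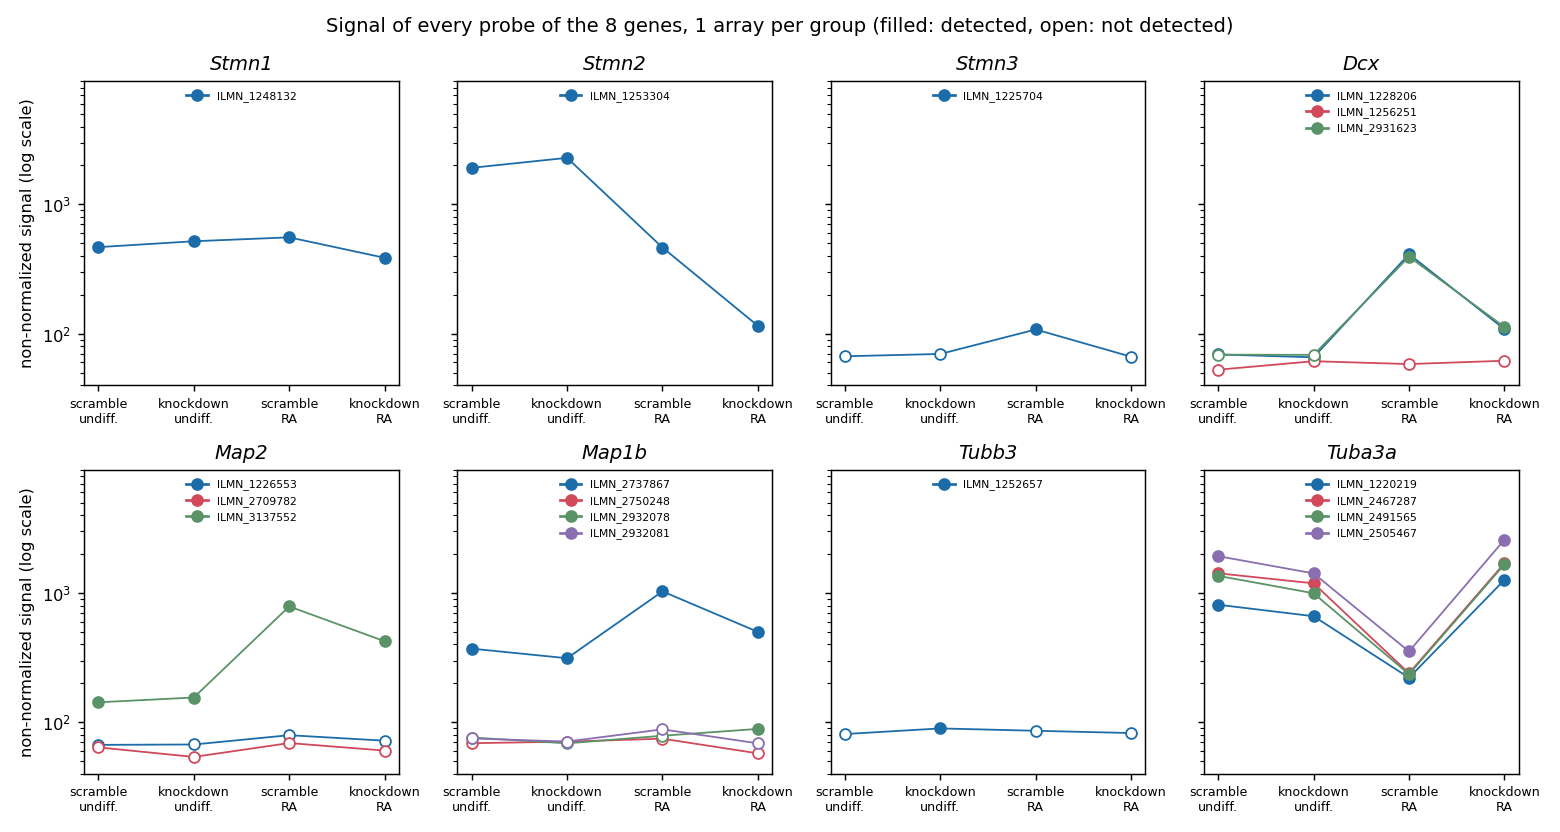
Non-normalized signal (log axis) of all 18 probes of the 8 genes on the 4 arrays, 1 panel per gene and 1 line per probe, with filled points detected at a detection p under 0.01 and open points not detected. Stmn2 was lowest in RA-treated knockdown cells (115), Dcx stood out in RA-treated scramble cells (394 and 412), and all 4 Tuba3a probes were lowest in RA-treated scramble cells (221 to 353).

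Among the stathmins, Stmn2 showed the widest range over the 4 arrays, and it was high in undifferentiated stem cells rather than after RA. Before RA its signal was 1917 with the scramble and 2290.5 with the AKAP95 shRNA, and after RA it was 464 and 115. Both undifferentiated arrays lay above both RA arrays. The RA effect was -2.32 in scramble cells (5.0-fold lower) and -5.29 in knockdown cells (39.1-fold lower). Over the settings of background correction, offset, scaling and deposited values, the effect in knockdown cells ran from -4.44 to -5.29. The signal of 115 lay near the lowest detected on its array, 88.4. In an additive limma model over the 4 arrays, with RA and shRNA as terms, Stmn2 fell by 3.80 with RA on the log2 scale (SE 0.75, Benjamini-Hochberg adjusted p = 0.0257 over 13343 probes). This p rests on 1 residual degree of freedom, in which noise and any difference between the RA effects are held together. With no filter on dim probes the adjusted p was 0.0876. It was thus not highest on the array with the highest neuron marker signal, which was that of RA-treated scramble cells.

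Stmn1, the stathmin of dividing cells, had signals of 467 and 518 in undifferentiated scramble and knockdown cells, and of 556 and 386 after RA. The RA-treated knockdown array was the lowest of the 4, by less than 2-fold from any other array. Its RA effect was 0.01 in scramble and -0.85 in knockdown cells, and the limma RA term did not pass the threshold (-0.42, SE 0.27, adjusted p = 0.271). Stmn3 was detected only in RA-treated scramble cells, at a signal of 108, against 66.8 (scramble) and 69.6 (knockdown) before RA and 66.2 with knockdown after RA. The bound on its RA effect in scramble cells was at least 0.27 (1.21-fold higher), which is under the size rule. Stmn4, the remaining member of the family, was detected on no array, with signals of 61.0 to 75.4.

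The microtubule-associated proteins went the other way. Dcx was detected only after RA. The probe with the higher mean gave 68.7 with scramble and 68.5 with knockdown before RA, and 394 and 112 after it. A second Dcx probe gave 68.9, 65.6, 412 and 108 in the same order. Both probes were therefore highest in RA-treated scramble cells and only slightly above the detection limit in RA-treated knockdown cells. The RA effect in scramble cells was at least 6.77-fold and at least 7.21-fold higher by these probes (log2 bounds 2.76 and 2.85, SD between probes 0.06, n = 2 probes). In knockdown cells the bounds were 1.25-fold and 1.19-fold. The limma RA term for Dcx was 2.28 (SE 0.62, adjusted p = 0.0515) and 2.35 (SE 0.63, adjusted p = 0.0502), just outside the threshold of 0.05, and under 6 of the 7 other settings at least 1 of the probes passed, the exception being the fit with no filter on dim probes. The remaining Dcx probe was detected on no array, with signals of 52.6 to 61.7.

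Map2 gave 143 with scramble and 156 with knockdown before RA, and 788 and 424 after RA. Both RA arrays lay above both undifferentiated arrays. The RA effect was 2.60 in scramble cells (6.06-fold higher) and 1.32 in knockdown cells (2.50-fold higher). Map2 rose with RA in the limma model, by 1.96 on the log2 scale (SE 0.35, adjusted p = 0.0221), and with no filter on dim probes the adjusted p was 0.0675. The other Map2 probes, 2 in number, were detected on no array, with signals of 54.0 to 79.5, so the Map2 values rest on 1 probe.

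The brightest probe of Map1b gave 372 (scramble) and 313 (knockdown) before RA, and 1030.1 and 501 after RA. The order of the arrays was the same as for Map2 at the top, with RA-treated scramble cells highest. The RA effect was 1.32 in scramble cells (2.49-fold higher) and 0.37 in knockdown cells (1.29-fold higher), and the limma RA term did not pass (0.84, SE 0.29, adjusted p = 0.0849). On the deposited median-normalized values it did (adjusted p = 0.0187). Of the 3 other Map1b probes, 2 were detected on no array. The remaining one was detected only in RA-treated knockdown cells, at a signal of 88.9 against 76.3, 68.7 and 78.7 elsewhere, and thus did not show the pattern of the bright probe.

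Tubb3, the marker that gives neuronal tubulin its name, was at the edge of detection on every array. Its single probe gave 81.1 and 89.7 in undifferentiated scramble and knockdown cells and 86.0 and 82.6 after RA. The detection p was 0.0175, 0.00752, 0.0276 and 0.0226 in that order, so only the undifferentiated knockdown array passed. No RA effect of Tubb3 could be measured in scramble cells, where neither array detected it, and the limma RA term was -0.37 (SE 0.20, adjusted p = 0.21).

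Tuba3a was the one of the 8 genes that was highest in RA-treated knockdown cells, and its 4 probes gave the same order of arrays. The probe with the highest mean gave 1929 (scramble) and 1420.0 (knockdown) before RA, then 353 and 2585 after RA. The other 3 probes gave 812 to 1422, 662 to 1189, 221 to 239.6 and 1262 to 1701 in the same order. Every probe was lowest in RA-treated scramble cells and highest in RA-treated knockdown cells. In scramble cells the RA effect was -2.81 by the brightest probe (7.0-fold lower) and -2.43 to -3.06 by the others (SD between probes 0.29, n = 4 probes). In knockdown cells it was 0.81 by the brightest probe (1.75-fold higher) and 0.35 to 0.68 by the others (SD 0.20, n = 4 probes). The effects had opposite signs, and the limma RA term passed for none of the 4 probes (-0.87 to -1.36, adjusted p = 0.264 to 0.418).

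Counting over the 8 genes, 7 could be compared between RA-treated and undifferentiated scramble cells. Of these, Dcx, Map2 and Map1b were at least 2-fold higher, beside 14.2% of 9509 genes compared, and Stmn2 and Tuba3a were at least 2-fold lower, beside 11.8%. With all probes of a gene averaged, 1 gene was higher in place of 3, as Map2 stood at 0.97 and Map1b at 0.35. The median of the 7 was 0.27 and that of all genes -0.02. By probes the counts were 4 higher and 5 lower of 11, beside 13.0% and 11.9% of 12804, and 4 of the 5 lower probes were those of Tuba3a. In knockdown cells 1 of 7 genes was higher (Map2) and 1 lower (Stmn2), beside 12.4% and 9.82% of 9530 genes, with a median of 0.32 against 0.00. By probes this was 1 higher and 1 lower of 12, beside 11.0% and 10.3% of 12831, so in knockdown cells the counts were near the background in each direction. On the deposited median-normalized values, 69.3% of all probes past 2-fold in knockdown cells were higher, against 51.7% here. In the limma model 1 probe rose (Map2) and 1 fell (Stmn2) of 13 tested, beside 18.7% and 18.4% of all probes tested. Neither count was above the background, and the higher count ran from 0 to 4 over the settings. Read by their brightest probes, Stmn3, Dcx, Map2 and Map1b were highest in RA-treated scramble cells, where the neuron marker signal was also highest. Stmn2 was highest in undifferentiated knockdown cells and Tuba3a in RA-treated knockdown cells. Tubb3 was highest in undifferentiated knockdown cells, the only array that detected it, but all its signals lay at the edge of detection. Stmn1 was highest in RA-treated scramble cells by signal and in undifferentiated knockdown cells after normalization.

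**Figure D2:**
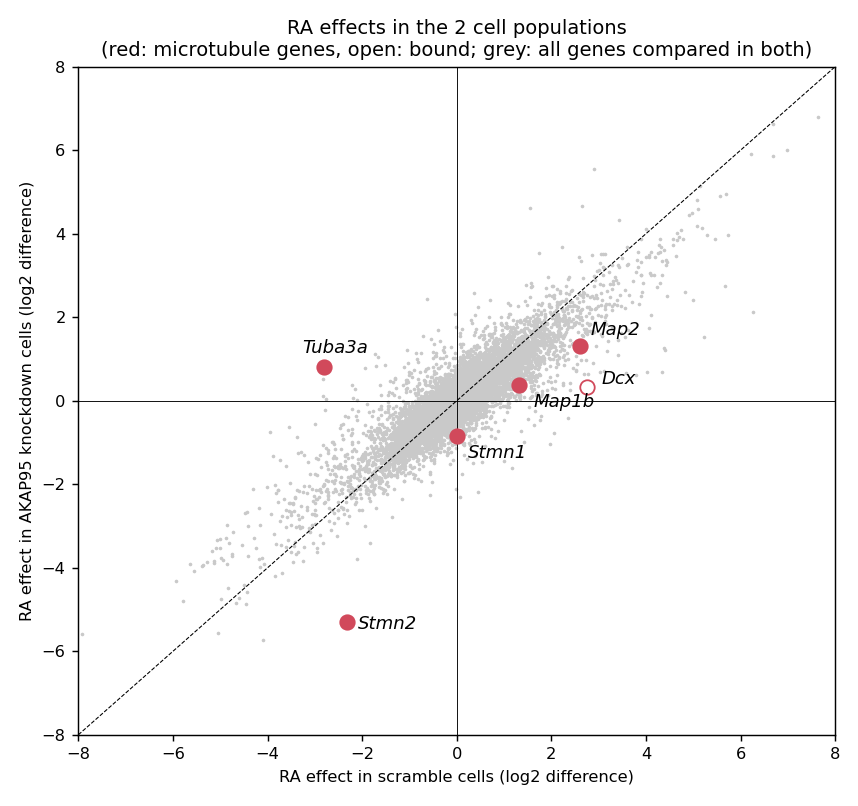
RA effect in scramble cells (x axis) against that in AKAP95 knockdown cells (y axis), both as log2 differences, for the microtubule genes compared in both (red, open where either value is a bound) and all genes compared in both (grey); the dashed line marks equal effects. Stmn2 (-2.32 and -5.29), Dcx, Map2, Map1b and Stmn1 lie below the line, and Tuba3a (-2.81 and 0.81) lies above it with effects of opposite sign.

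In undifferentiated cells none of these genes passed the size rule with AKAP95 knockdown, as was the case for nearly all genes. Of 6 genes compared, 0 were 2-fold higher and 0 were 2-fold lower, beside 0.0687% and 0.126% of 8734 genes, and by probes the counts were 0 and 0 of 9, beside 0.068% and 0.102% of 11765. The largest differences, by the brightest probe of each gene, were Tuba3a at -0.35 (SD between probes 0.09, n = 4 probes) and Stmn2 at 0.28. Stmn1 stood at 0.22, Map2 at 0.25 and Map1b at -0.21. The median of the 6 was 0.20, against 0.01 over all genes.

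After RA, 5 of the 7 genes compared differed by at least 2-fold between knockdown and scramble cells. Lower in knockdown cells were Stmn2 (-2.68, 6.42-fold), Dcx (-2.44 and -2.60 by its 2 detected probes, 5.41-fold and 6.07-fold), Map1b (-1.16, 2.24-fold) and Map2 (-1.03, 2.04-fold), beside 3.26% of 9397 genes. The Map1b value rests on its bright probe, and over it and the dim probe detected only in RA-treated knockdown cells the SD was 1.06 (n = 2 probes). With all probes of a gene averaged, 2 genes were lower in place of 4, as Map2 stood at -0.47 and Map1b at -0.46. Higher was Tuba3a (3.26, 9.59-fold by the brightest probe and 7.29-fold to 9.44-fold by the others, SD 0.19 on the log2 scale, n = 4 probes), beside 3.17%. Stmn1 stood at -0.64, and Stmn3 was at least 1.44-fold lower (log2 bound -0.52). The median of the 7 was -1.03 and that of all genes 0.01. By probes the counts were 4 higher and 5 lower of 12, beside 2.73% and 2.81% of 12627, where the 4 higher probes were all of Tuba3a. The Map2 value lay close to the size rule and was -0.88 to -0.96 without background correction, with an offset of 50 and on the deposited median-normalized values.

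These values share the RA-treated scramble array with the RA effects of scramble cells. A gene that stood high on that array, as Dcx did, enters both comparisons through it. In the limma model the knockdown term, averaged over both states, called 0 of the 13 probes and 0.0% of all 13343 probes in either direction. The smallest adjusted p over all probes was 0.831, with 566 probes at an unadjusted p under 0.05.

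The difference of the RA effects, knockdown less scramble cells, was -2.97 for Stmn2, -1.28 for Map2, -0.95 for Map1b and -0.86 for Stmn1. It is not given for Dcx, which was not detected before RA. It was 3.61 for the brightest Tuba3a probe and 3.11 to 3.60 for the others. Over all probes it reached 2-fold upwards in 3.81% and downwards in 3.6%. The 4 arrays leave no degree of freedom for this difference, so it was not tested.

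**Figure D3:**
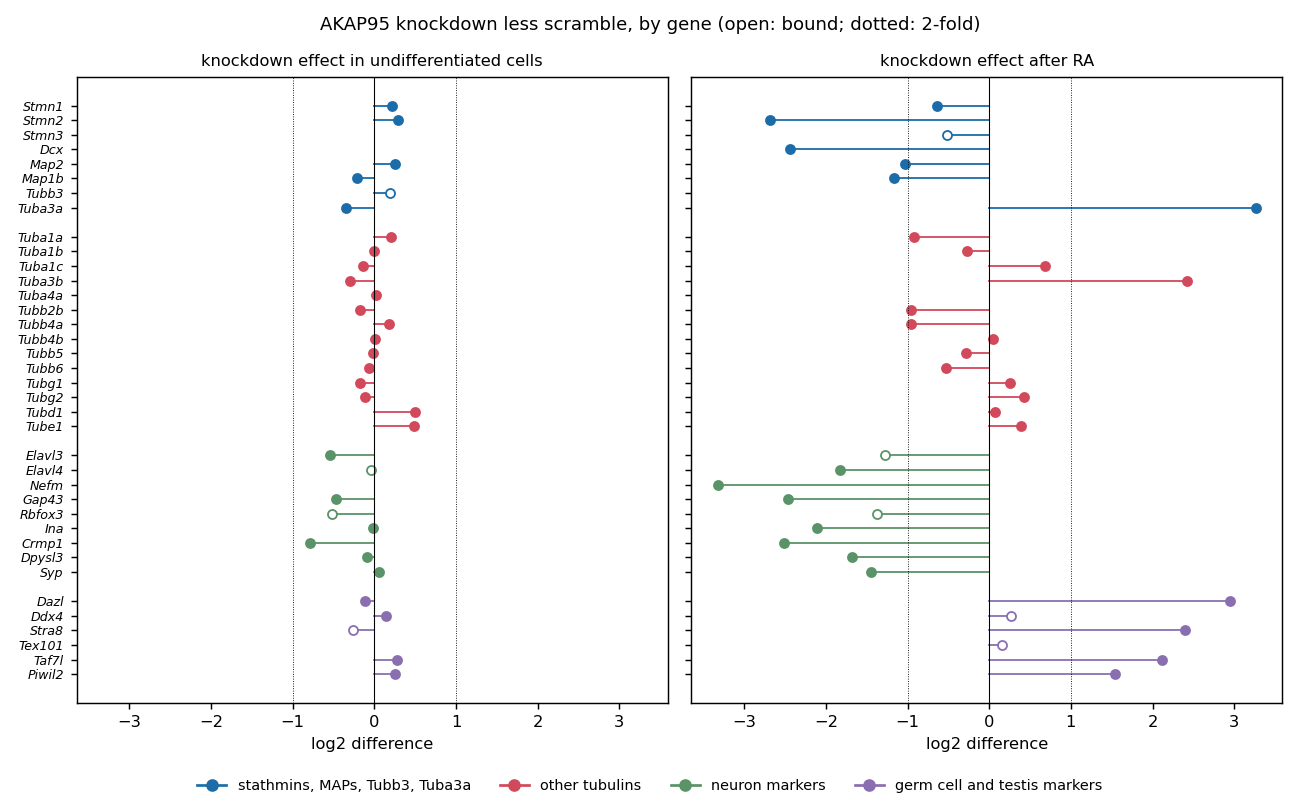
AKAP95 knockdown less scramble as log2 differences, in undifferentiated cells (left) and after RA (right), for the 8 genes, other detected tubulins, neuron markers and germ cell and testis markers, 1 point per gene, open where the value is a bound and missing where the gene could not be compared. All values on the left lie within 2-fold, whereas on the right Stmn2, Dcx, Map2, Map1b and the 9 neuron markers lie at or below -1, and Tuba3a, Tuba3b, Dazl, Stra8, Taf7l and Piwil2 lie above 1.

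Markers of some cell types moved with these genes after RA. The marker lists too were chosen with earlier results of these data known, so their counts are not tests of enrichment. Of the 14 neuron markers, 9 could be compared and all 9 were at least 2-fold lower in knockdown than in scramble cells after RA, with a median of -1.83. Over all genes the share lower was 3.26% of 9397. Their values ran from -3.32 for Nefm, a neurofilament gene, and -2.51 for Crmp1, a collapsin response mediator, to bounds of -1.38 for Rbfox3 and -1.28 for Elavl3. Without background correction, with an offset of 50 and on the deposited values, 7 of the 9 were 2-fold lower. In undifferentiated cells 0 of 8 differed by 2-fold, beside 0.0687% of 8734 genes higher and 0.126% lower. The summed signal of the 14 was 1823 with scramble and 1623 with knockdown before RA, and 3948 and 1451 after RA. Of 8 neurogenic factors, 7 were detected after RA with the scramble shRNA and 2 with knockdown, with summed signals of 1237 and 576, against 517 and 525 before RA. Neurog2 was detected only in RA-treated scramble cells, and Neurog1 on no array. Dcx, Map2 and Map1b thus were highest on the array with the highest neuron marker signal. With RA in scramble cells 4 of 9 neuron markers were 2-fold higher and 0 lower, beside 14.2% and 11.8% of 9509 genes. With RA in knockdown cells 0 of 8 were 2-fold higher and 3 lower, beside 12.4% and 9.82% of 9530 genes. The lower ones were Ina (-2.11), Gap43 (-1.46) and Crmp1 (-1.33). Without background correction and on the deposited values 1 neuron marker was lower there. The limma RA term passed for 0 of the 9. Of 8 neural progenitor markers 4 were detected, and after RA 1 of 4 was 2-fold lower with knockdown and 0 higher. With RA in scramble cells 2 of these 4 were 2-fold higher and 1 lower, Sox2, at -2.50. The part of cell composition in these values was not tested.

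After RA, genes of the germ cell and testis list were higher in knockdown cells, as Tuba3a was. Of its 8 genes 7 could be compared, and 5, among them Tuba3b, were at least 2-fold higher in knockdown cells and 0 lower (median 2.12). The count, the median and the summed signals of the list take in Tuba3b, whose probe may share signal with those of Tuba3a. Dazl, a germ cell RNA-binding protein, stood at 2.95, Stra8, a gatekeeper of meiosis, at 2.40, Taf7l at 2.12 and Piwil2, of the piRNA pathway, at 1.54. Their RA effects were not all like those of Tuba3a, since Stra8 stood at 2.89 in scramble cells and Piwil2 at -2.86 in scramble and -1.58 in knockdown cells. The summed signal was 2649 with scramble and 2479 with knockdown before RA, and 1965 and 9099 after it. Sycp3, a defining protein of meiotic chromosomes, was detected on no array, and Ddx4 signals were 73.9 to 102. Pluripotency genes also stood higher in RA-treated knockdown cells, 6 of 7 by at least 2-fold (median 1.65), with summed signals of 4516 in scramble and 15751 in knockdown cells after RA against 85211 and 83894 before. Trophoblast markers were 2-fold higher in 4 of 7 (median 2.94), with summed signals of 1549 and 4281 after RA. The 4 were Ctsj, Ctsq and, as bounds, Prl2b1 and Prl3b1, whereas Krt7 stood at 0.60 and Gata3 at -0.01. Extraembryonic endoderm markers were 2-fold lower in 2 of 6 and higher in 0, and fibroblast markers 2-fold lower in 2 of 4 and higher in 0. Beside these list counts, 3.17% of all 9397 genes compared were 2-fold higher and 3.26% lower. The part of these cell types in the Tuba3a and Stmn2 values was not tested.

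Tuba3b had signals of 654 (scramble) and 512 (knockdown) before RA, and 241 and 1049 after RA. Its RA effect was -1.94 in scramble and 0.78 in knockdown cells, and its knockdown effect after RA was 2.42. It therefore had the order of arrays seen for Tuba3a, lowest in RA-treated scramble and highest in RA-treated knockdown cells. Since the coding sequences of Tuba3a and Tuba3b are nearly the same, the signals of their probes may be shared, and whether they are was not tested.

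Of the 9875 genes detected on at least 1 array, those with patterns nearest to 3 of the genes were found by the Euclidean distance between the 4 log2 values, each centred on the gene's own mean. Nearest to Tuba3a were Tex19.2 (distance 0.50), a gene of the testis, Ezhip (0.53), whose product inhibits Polycomb repressive complex 2, and Rhox5 (0.54), of the X-linked reproductive homeobox cluster, against a median distance of 2.58 over all genes. Rhox5 signals were 1929.9 (scramble) and 1565 (knockdown) before RA, and 351 and 1854 after RA. Nearest to Dcx were Metrn (0.35), which encodes the secreted neural factor meteorin, Meox1 (0.37), a mesoderm homeobox gene, and Chrna3 (0.39), a nicotinic receptor subunit, against a median of 2.89. Stmn2 had no neighbour as near. Its nearest were Jam2 (1.38), a junctional adhesion molecule, Gbx2 (1.51), a homeobox gene, and Pcyt1b (1.54), an enzyme of phosphatidylcholine synthesis, against a median of 4.29. Gbx2 signals were 2259.9 and 3523 before RA in scramble and knockdown cells, and 607 and 345 after RA. These likenesses are over 4 arrays. Dcx and Meox1 were not above the detection limit on 2 of them, Chrna3 on 3 and Jam2 on 1, so the distances from Dcx rest in part on background values.

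The other tubulin genes differed less. Of 17 on the array 14 were detected, and in the limma model 0 rose and 2 fell with RA, beside 18.7% and 18.4% of all probes tested, as Tuba4a fell by 1.80 (SE 0.19, adjusted p = 0.00942) and Tubb4b fell by 0.63 (SE 0.17, adjusted p = 0.0491). With median scaling, with the deposited values and with an intensity trend in the fit, 1 other tubulin rose and 3 fell, and with a detection limit of 0.05, 1 fell. In scramble cells 1 of 14 was at least 2-fold higher with RA and 3 were lower, beside 14.2% and 11.8% of 9509 genes. The higher one was the brain beta-tubulin Tubb4a (signals 90.1 before and 188 after), and the lower ones were Tuba3b, Tuba4a and Tuba1c. None was higher without background correction, with an offset of 50 or on the deposited values, each of which gave 2 lower. In knockdown cells 0 were higher and 1 was lower, Tuba4a, beside 12.4% and 9.82% of 9530 genes. Median scaling gave 1 higher and 3 lower, and without background correction, with an offset of 50 and on the deposited values 0 were lower. After RA 1 of 13 was 2-fold higher in knockdown cells (Tuba3b) and 0 lower, whereas with median scaling 2 and on the deposited values 1 were lower. Over all 9397 genes compared, 3.17% were higher and 3.26% lower. Tubb2b (-0.96), Tubb4a (-0.96) and Tuba1a (-0.92) stood just under the size rule when read from their brightest probes. The dimmer Tubb2b probes detected on all arrays ran from -1.03 to -1.33.

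Other microtubule-associated proteins, 12 of 15 detected, went both ways with RA. In the limma model 3 rose and 2 fell, which is not far from the shares of all probes. Clip1 rose by 2.23 (SE 0.18, adjusted p = 0.00698), Mapre2 by 1.90 (SE 0.31, adjusted p = 0.0187) and Map7d1 by 1.37 (SE 0.17, adjusted p = 0.0122). Clip1 and Mapre2 encode proteins that bind growing microtubule ends. Mapt, the gene of tau, fell by 3.46 (SE 0.17, adjusted p = 0.00601) and Map6, of a microtubule-stabilising protein, fell by 0.96 (SE 0.19, adjusted p = 0.0259). On the deposited values 1 of these genes fell. Mapt, a protein of axons, had signals of 765 and 786 in undifferentiated scramble and knockdown cells and of 128 and 134 after RA. Both undifferentiated arrays lay far above both RA arrays, as for Stmn2, but the RA effects in scramble (-3.44) and knockdown cells (-3.49) were alike and the knockdown effect after RA was 0.04. After RA 0 of 11 of these genes differed by 2-fold between knockdown and scramble cells in either direction. Over all 9397 genes compared, 3.17% were higher and 3.26% lower, so the count was near the background.

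Among the microtubule lists, RA effects ran mostly upwards in that of the motors. Of 21 genes on the array 18 were detected, and 8 rose with RA in the limma model while 0 fell, beside 18.7% and 18.4% of all probes tested, with medians of 0.55 in scramble and 0.71 in knockdown cells. Without background correction, with an offset of 50 and with a trend in the fit, 9 rose and 1 fell, and with median scaling and the deposited values 8 rose and 1 fell. The kinesin gene Kif21a rose by 2.14 (SE 0.19, adjusted p = 0.00776), with signals of 86.6 and 77.3 before RA in scramble and knockdown cells and 310 and 215 after it. The others were the kinesins Kif3c (1.46), Kif5c (1.31), Kif1b (1.11), Kif3a (1.00) and Kif1a (0.89), the kinesin light chain Klc1 (1.16) and the dynein heavy chain Dync1h1 (1.25), with adjusted p = 0.0128 to 0.0243. After RA 0 of 18 differed by 2-fold between knockdown and scramble cells, beside 3.17% of 9397 genes higher and 3.26% lower, so the count was near the background.

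Among 14 detected genes of tubulin folding and modification, 2 rose with RA and 2 fell, beside the same 18.7% and 18.4%, so that the counts were near the background. The severing protein gene Fign rose by 2.16 (SE 0.21, adjusted p = 0.00846) and the tubulin acetyltransferase gene Atat1 by 1.75 (SE 0.39, adjusted p = 0.0332). Ttll1, of the tubulin polyglutamylases, fell by 0.91 (adjusted p = 0.0279) and Spast, which encodes the severing protein spastin, fell by 0.68 (adjusted p = 0.0417). With median scaling 2 rose and 0 fell, and on the deposited values 3 rose and 1 fell. Fign signals were 117 and 113 before RA in scramble and knockdown cells and 532 and 388 after it. After RA 0 of 14 differed by 2-fold between knockdown and scramble cells, again beside 3.17% and 3.26% of 9397 genes. In undifferentiated cells 0 genes of any of these microtubule lists differed by 2-fold, beside 0.0687% of 8734 genes higher and 0.126% lower.

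**Figure D4:**
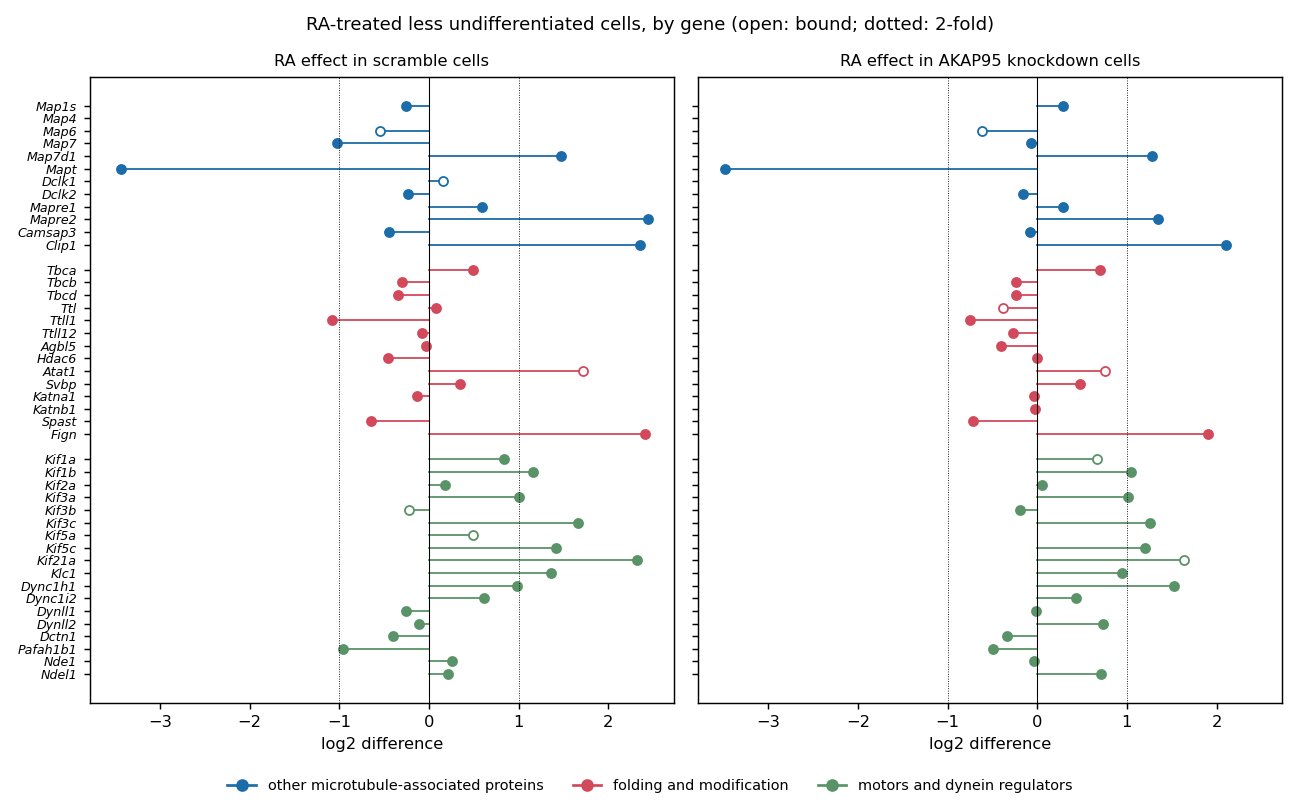
RA effect as log2 differences in scramble cells (left) and AKAP95 knockdown cells (right) for the detected other microtubule-associated proteins, genes of tubulin folding and modification, and motors and dynein regulators, 1 point per gene, open where the value is a bound and missing where the gene could not be compared. Mapt lies near -3.44 and -3.49, Clip1 and Fign lie above 1 in both panels, and 6 motor genes lie above 1 in each panel.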

How the data were processed

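Expression was measured in 4 RNA samples, 1 array each. The authors deposited, per the file headers, an average bead intensity, not normalized, with its detection p-value for each probe on each array, and the same intensity as a ratio to the array's median. The deposited ratio over the undifferentiated scramble array was not used. The scanner software and any background subtraction are not given in the sources used here.

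Background was corrected with limma 3.58.1 (nec, negative controls inferred from the detection p-values, offset 16) in R 4.3.3, arrays were quantile-normalized and log2 taken. Symbols came from RefSeq (GRCm38.p6) accessions, which matched 23876 probes (92.9%). A gene was read from its probe with the highest mean, and 5016 genes had more than 1. Detection was a p under 0.01. An additive model (RA and shRNA, lmFit and eBayes, Benjamini-Hochberg over 13343 probes, threshold 0.05, 1 residual and 3.17 prior degrees of freedom) was the only test. The number of arrays limits the precision, and its p-values rest on spread that may be technical. Python 3.11.15, numpy 2.4.6, pandas 2.3.3 and matplotlib 3.10.9 did the rest.

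Every probe of the 8 genes is given. List genes could be named if past 2-fold, with the 3 genes nearest to Stmn2, Tuba3a and Dcx. Map6, Tubb4b, Kif1a and Spast, called by limma alone, Ddx4 and undetected markers lie outside that rule and were named after their values were seen. The genes and lists were chosen with earlier results of these data known. Alternatives were the background correction, offset, scaling, deposited ratios, bound, detection limit, probe filter, probe averaging and a trend in eBayes.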

Additional observations from a re-analysis of the deposited data

Results flagged for a closer look

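For some genes the effects under the same contrast had opposite signs in the groups compared, and in each case the difference was not tested, since no group had a replicate. The RA effect of Stmn1 stood at 0.01 with scramble and at -0.85 with AKAP95 shRNA, a difference of -0.86. The scramble value was smaller than the median SD between probes of a gene, 0.20, so its sign carries no weight. The knockdown effect of Stmn1 was 0.22 before and -0.64 after RA, which is the same difference of -0.86. The knockdown effect of Stmn2 was 0.28 before and -2.68 after RA, a difference of -2.97. That of Map2 was 0.25 before and -1.03 after RA, a difference of -1.28. The RA effect of Tuba3a stood at -2.81 with scramble and at 0.81 with AKAP95 shRNA, a difference of 3.61, and its knockdown effect was -0.35 before and 3.26 after RA, again 3.61. The difference of RA effects reached 2-fold upwards in 3.81% and downwards in 3.6% of 13343 probes.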

How the results depend on the processing

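No paired analysis was possible because each group had 1 array, and for the same reason leaving out an array leaves no residual degree of freedom. All arrays shared 1 chip, so a chip block could not be fitted. Under the alternatives, 197 of the pairwise values of the 8 genes moved by less than the median spread between probes and 81 by more, none of those past 2-fold with a change of sign. In the limma fits 167 values kept their side of the threshold, 12 newly passed and 2 were lost. The cause of the changes below was not tested, beyond the number of probes tested.

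In scramble cells 1661 probes were 2-fold higher and 1525 lower with RA. The lower count was 1005 without background correction and 866 on the deposited values. In knockdown cells the counts were 1415 and 1322, and the lower count was 824 and 600. On the deposited values 69.3% of the RA calls in knockdown cells were higher, against 51.7%, and the median of all probes there was 0.12, against -0.02. In undifferentiated cells 8 probes were higher with knockdown and 12 lower, against 3 and 4 both without background correction and at an offset of 50, 3 and 5 on deposited values, and 24 and 27 without the bound; a detection limit of 0.05 gave 13 higher. After RA 345 were higher and 355 lower, against 170 and 201 without background correction, 206 and 216 with an offset of 50, and 205 and 183 on deposited values. The difference of RA effects reached 2-fold upwards in 508 and downwards in 481 probes, against 206 and 197, 234 and 226, and 257 and 178.

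Of the 18 probes, 1 was 2-fold higher with RA in knockdown cells, and 3 without the bound (Dcx at 1.11 and 1.07). Without the bound Stmn3 stood at 1.09 for RA in scramble cells and -1.18 for knockdown after RA. Averaging all probes of a gene left 1 gene in place of 3 higher with RA in scramble cells, 0 in place of 1 in knockdown cells and 2 in place of 4 lower with knockdown after RA, as the mean takes in probes detected on 1 array or none (Map2 at 0.97, 0.49 and -0.47, and Map1b at 0.35 and -0.46 in scramble cells and after RA). The limma model called 1 of the 18 probes higher with RA, against 2 without background correction, 3 with an offset of 50, median scaling, a detection limit of 0.05 or a trend, 4 on deposited values and 0 without a filter, where the 1 lower call was also lost (0). The knockdown term of 1 dim Map1b probe turned from 0.0038 to -0.0023 without background correction.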

Other observations

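Tubb2b, a beta-tubulin of the developing brain, and Tuba1a, its alpha-tubulin counterpart in young neurons, stood just under the size rule after RA when read from their brightest probes, at -0.96 and -0.92 in knockdown against scramble cells. They were singled out after their values were seen, and Tubb4a stood at -0.96 as well. Of 6 Tubb2b probes 5 were detected on all 4 arrays, and their knockdown effects after RA ran from -0.96 to -1.33, with 4 of the 5 past 2-fold. The brightest probe, which gave the gene its value by the rule, had the smallest difference. Its signals were 12043 (scramble) and 10051 (knockdown) before RA, and 11527 and 5648 after RA. A dimmer probe gave 654, 548, 555 and 265 in the same order. In undifferentiated cells the 5 probes ran from -0.21 to 0.01, and the RA effect in scramble cells from -0.62 to 0.05. Tuba1a signals were 3455 and 3781 before RA in scramble and knockdown cells, and 5576 and 2838 after it.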
